A study of Macaca fascicularis with 7 samples.

Results

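The cytoplasmic ribosomal protein genes encode the proteins of the ribosome that translates nuclear-encoded mRNA. They were chosen by symbol alone, as every gene whose name is RPL or RPS with a number and at most a short letter ending, together with RPSA, RPLP0, RPLP1, RPLP2 and FAU. The RPS6K kinases, which share the prefix, were not included. The rule found 82 genes among the 28161 usable gene rows of the deposited count table. Of these, 31 encode proteins of the small subunit, 41 proteins of the large subunit and 3 the acidic P stalk, which makes 75 core genes. The other 7 are paralogs: RPL3L, RPL7L1, RPL10L, RPL22L1, RPL26L1, RPL39L and RPS27L. RPS15, RPL17 and RPL36A have no row under their own symbols, and the same holds for the Y-linked RPS4Y1 and RPS4Y2.

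The genes were followed in 7 libraries of wild type cynomolgus monkey (Macaca fascicularis) oocytes. In vitro matured oocytes at metaphase II (IVM MII, labelled as treated) gave 3 libraries, in vivo matured oocytes at the same stage (IVO MII, labelled as control) gave 2, and immature oocytes at the germinal vesicle stage (GV, labelled as control) gave 2. The design asks how expression differs between the 2 routes of maturation and between each kind of mature oocyte and the immature one. The labels give no animal, age, hormone treatment, culture medium or number of oocytes per library, so p-values measure only the spread between these libraries, which may be technical. The GV libraries lie in another data folder than all MII libraries, so folder and stage cannot be told apart.

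Each ribosome carries, as a rule, a single copy of each of its proteins, apart from the P stalk, which carries RPLP1 and RPLP2 as pairs on RPLP0. Most vertebrate ribosomal protein mRNAs begin with a tract of pyrimidines (TOP mRNAs), through which mTOR signalling and LARP1 control their translation. A growing oocyte accumulates ribosomes and stored mRNA. Transcription is then silent in the fully grown oocyte and through the meiotic divisions, and transcripts present at MII are used, stored or degraded without replacement until the embryonic genome is switched on.

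The libraries held 22901970 to 29245733 counts, and 16374 genes, all 82 ribosomal protein genes among them, passed the filter on low counts. Levels below are counts scaled to a common library size (CPM), with library sizes corrected by the trimmed mean of M values (TMM), whose factors were 0.766 to 0.985 in MII libraries, against 1.38 and 1.42 in GV libraries. The 14 oocyte markers, of which 13 passed the filter, summed to 8977 to 18085 CPM in IVM MII, 8794 to 10764 in IVO MII and 12167 to 14411 in GV. Among them, GDF9 and BMP15 were abundant in every library, at 2157 to 5867 CPM and 733 to 1422 CPM. The 16 cumulus and granulosa markers summed to 363 to 491 CPM in IVM MII, 229 to 246 in IVO MII and 99.9 to 284 in GV, with AMH, PTX3, PTGS2 and NR5A1 at 0 throughout. The 10 markers of stroma, theca and endothelium summed to 60.8 to 89.8, 88.5 to 127 and 1081 to 1212 CPM in the same order. VWF alone made up 991 and 1140 CPM of the GV sums, and COL3A1 and LUM were at 0 throughout. The 7 blood and immune markers found summed to at most 1.12 CPM in any library, with CD14, LYZ and ITGAM at 0 throughout. The part of these other cells in the results was not tested.

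Transcripts of the core genes were counted at very different levels, although their products are needed in equal number. Per kilobase of exon, the mean level over all 7 libraries ran from 300.02 CPM per kb for RPL30 to 0.645 CPM per kb for RPL12, a 465-fold range. The median was 14.6 CPM per kb, with quartiles at 7.51 and 51.2 CPM per kb. Below RPL30 came RPL41 at 151 CPM per kb, RPS29 at 132, RPS23 at 124 and RPL27 at 122. RPL30 is a large subunit protein next to the subunit interface, RPL41 the smallest protein of the ribosome, RPS29 a zinc-binding protein of the small subunit head, and RPS23 a protein of the decoding centre. At the other end stood RPS12 at 2.79 CPM per kb, RPL18 at 2.75, RPL31 at 2.53 and RPS18 at 1.35, above RPL12, a protein of the stalk base. RPL12 was counted 4, 3 and 11 times in IVM MII libraries, 9 and 13 times in IVO MII libraries, and 33 and 34 times in GV libraries, so its level is imprecise at this depth. Reads over exon junctions and reads that also match intronless copies may have been lost or placed elsewhere in the authors' counting, so the order of genes by level is uncertain.

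The order also differed by stage. In IVM MII libraries the highest core genes per kilobase were RPL30, RPS29, RPL41, RPS23 and RPL27, and in IVO MII libraries RPL30, RPL27, RPS23, RPL23A and RPS29. In GV libraries FAU came first at 267 CPM per kb, followed by RPL41, RPS25, RPL30 and RPL15. The 10 most counted of the 82 genes took 44.1% to 50.2% of the counts of all 82 in each library.

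**Figure D1:**
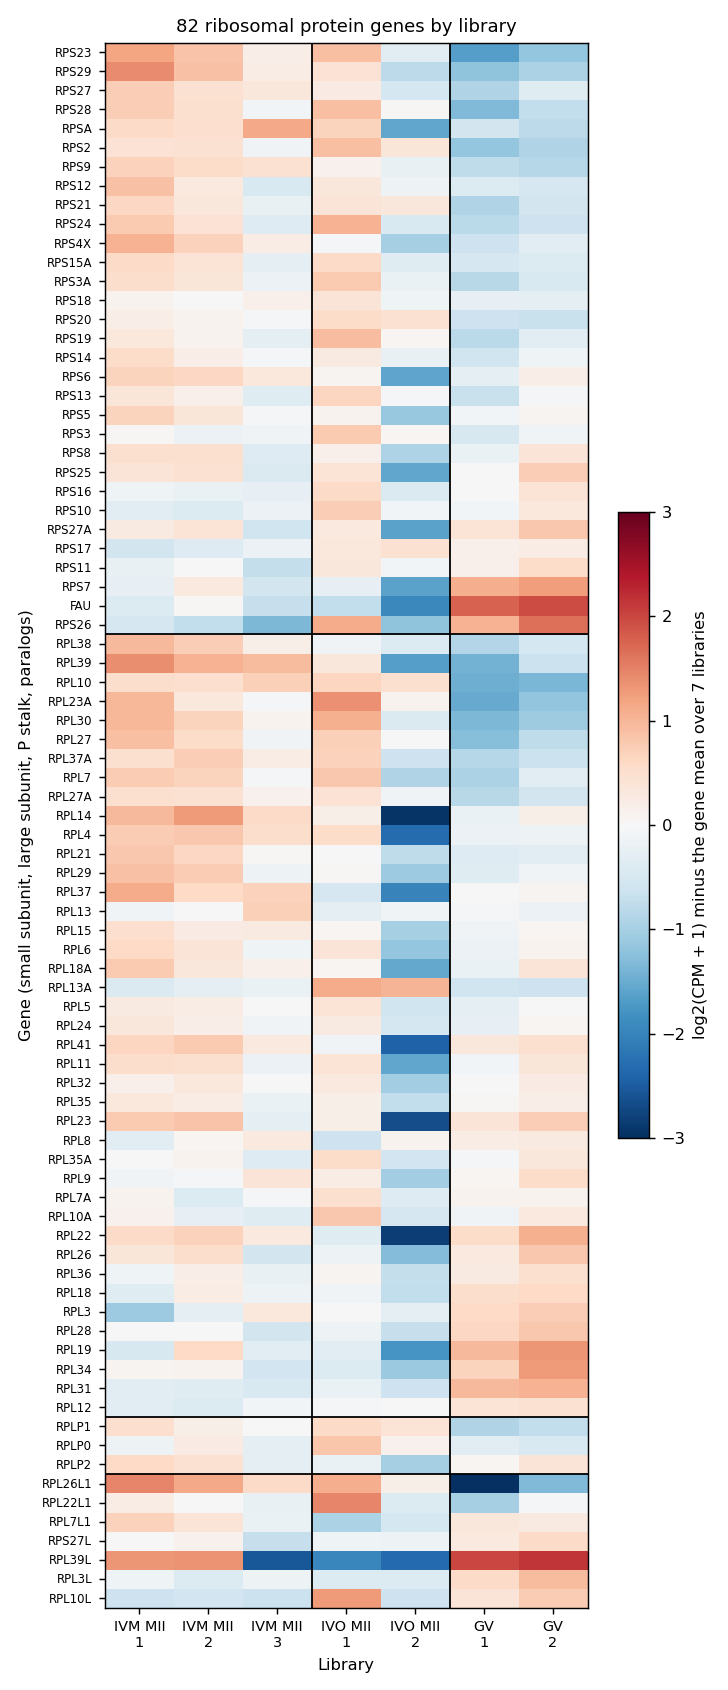
Heat map of the 82 ribosomal protein genes (rows, grouped by subunit) in the 7 libraries (columns, ordered IVM MII, IVO MII and GV), coloured by log2(CPM + 1) minus the mean of the gene over the 7 libraries, red above it and blue below. The second IVO MII library is lower than the first for 76 of the 82 genes (92.7%, against 45.1% of all genes tested), and FAU and RPL39L are high in both GV libraries.

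Summed over the 82 genes, ribosomal protein counts were a small part of the counts of every library. Per gene they were not low, with a median of 6.88 to 18.6 CPM per kb by library, against 1.84 to 2.67 over all genes tested. The 82 genes made up 0.223%, 0.234% and 0.185% of the counts of the IVM MII libraries. The shares were 0.215% and 0.131% in the IVO MII libraries, and 0.236% and 0.278% in the GV libraries. Reads may have been lost in the authors' counting, as stated above, so these shares may be too low. Both GV shares lie above all MII shares, the first of them narrowly. FAU and RPL39L took 9.15% and 8.19% of the ribosomal protein counts in the first GV library, and 8.65% and 7.43% in the second. In MII libraries FAU took at most 1.72% and RPL39L at most 3.23%. The higher GV shares thus rest in part on these genes and do not describe the family as a whole. On the TMM scale the sums were 2910.2, 2629 and 2031 CPM in IVM MII, 2584 and 1335 CPM in IVO MII, and 1659 and 2014 CPM in GV. The means were 2523.6 ± 448.8 CPM in IVM MII (SD, n = 3), 1959.6 ± 882.9 in IVO MII (SD, n = 2) and 1836 ± 251 in GV (SD, n = 2), so the order of the groups turns with the scaling. Both scales are relative within a library, so the amount of RNA per oocyte cannot be told from them. The ratio of small subunit to large subunit counts was 0.716, 0.687 and 0.611 in IVM MII, 0.703 and 0.643 in IVO MII, and 0.797 and 0.853 in GV. Both GV ratios lie above all MII ratios, but FAU, whose larger share in GV is given above, is counted with the small subunit. Gene by gene, the median log2 fold changes over GV were higher for the small subunit (0.65 in IVM MII, 0.77 in IVO MII). They were 0.26 and -0.35 for the large subunit. The ratio thus does not describe the small subunit genes as a set.

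**Figure D2:**
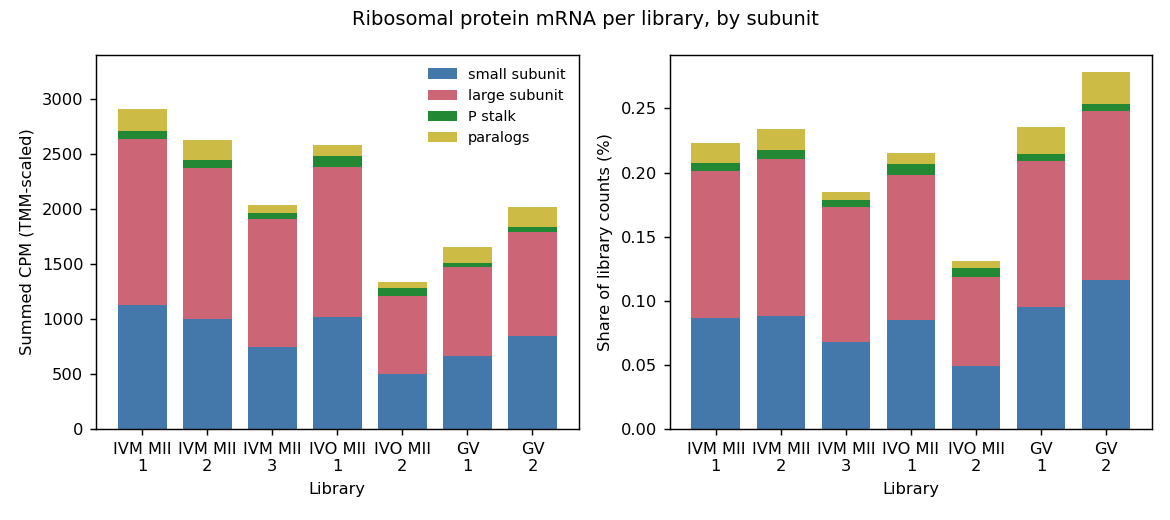
Stacked bars of the summed level of the ribosomal protein genes in each library, split by subunit, as TMM-scaled CPM (left) and as a percentage of the library's counts (right), with libraries ordered IVM MII, IVO MII and GV. The second IVO MII library is the lowest on both scales, at 0.131% and 1335 CPM.

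The largest difference within a group was between the 2 IVO MII libraries. On the log2(CPM + 1) scale the second was lower than the first by a median of -0.93 over the 82 genes, and 37 of the 82 (45.1%) were lower by more than 1 on that scale, against 11.1% of all 16374 genes tested. RPL14 had 10.8 and 0.347 CPM in these libraries, RPL4 20.6 and 2.01, and RPL23 26.8 and 2.93. These 3 large subunit genes, chosen after their values were seen, showed the widest gaps. RPL10 differed little, at 120 and 109 CPM, and RPL13A stood at 46 and 42.9 CPM. Among IVM MII libraries the third was lower than the first by a median of -0.47, with 69 of 82 genes lower (84.1%, against 45.0% of all genes). It was lower than the second by -0.46, with 66 lower (80.5%, against 48.5%). The first 2 IVM MII libraries differed by a median of -0.10, second over first. The second GV library was above the first by a median of 0.30, with 72 of 82 genes higher. There 12.2% of the 82 were lower, against 45.9% of all genes.

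In the column names of the deposited table the second IVO MII library carries the number 3, as does the third IVM MII library, while its title numbers it 2. The labels do not say that a number marks a shared batch. The libraries numbered 3 were both the lowest of their group, with summed ribosomal protein levels of 2031 CPM in IVM MII and 1335 CPM in IVO MII, against 2910.2 CPM in IVM MII and 2584 CPM in IVO MII for those numbered 1. The 1775 other tested genes under 1000 bases were also lower in the third IVM MII library than in the first, by a median of -0.29.

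Ribosomal protein transcripts are short, with a median exon length of 838 bases (390 to 4251), against 2964 bases over all genes tested. The 1775 other tested genes under 1000 bases also differed between the IVO MII libraries, by a median of -0.27, with 21.7% lower by more than 1. The 14517 other genes of 1000 bases or more had a median of 0.06. The 24 other TOP mRNAs listed for translation factors and related proteins had a median of -0.43 between the same libraries. The parts of transcript length and of transcript class in this gap were not tested. Results below are therefore also given without either IVO MII library.

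**Figure D3:**
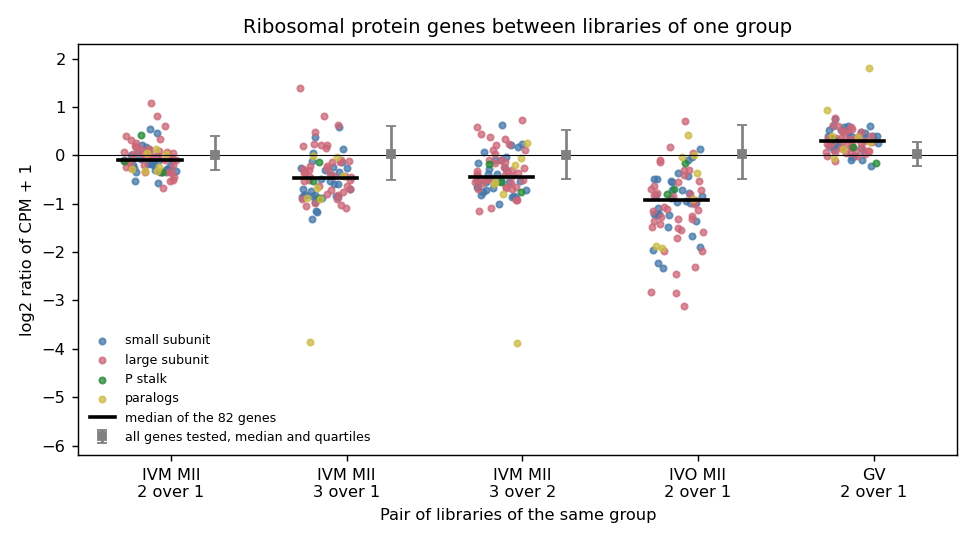
Log2 ratio of CPM + 1 between libraries of the same group, with 1 point per ribosomal protein gene coloured by subunit, a black bar at the median of the 82 genes and grey squares with bars for the median and quartiles of all genes tested. The points for the IVO MII libraries centre on -0.93, and those of the other pairs of libraries between -0.47 and 0.30.

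In vitro and in vivo matured MII oocytes were compared first. None of the 82 ribosomal protein genes passed the edgeR quasi-likelihood test at an adjusted p under 0.05, against 1.47% of all genes tested (0.892% higher and 0.580% lower in IVM MII). Of all calls 60.6% were higher in IVM MII, and 50.4% with upper quartile scaling. At an unadjusted p under 0.05 there were 7 of 82 genes (8.54%), against 21.1% of all genes. DESeq2 called 4 (4.88%, against 12.3% of all genes) and the newer edgeR fit 1 (1.22%, against 4.71%). The median log2 fold change of the 82 genes, IVM MII over IVO MII, was 0.35, against 0 over all genes tested, with 55 genes above 0 and 27 below. It was 0.95 without the first IVO MII library, when 5 of the genes were called (6.10%, against 2.09% of all genes), and -0.17 without the second, so its sign rests on 1 library. The IVM MII and IVO MII libraries did not overlap for 16 genes that were higher in IVM MII (19.5%, against 17.8% of all genes) and for 6 that were lower (7.32%, against 16.0%). In data simulated for this comparison, changes were put only into genes over 5 CPM on average. The simulated spread followed the trend over all genes, with no difference between libraries of a group that the family shared. There, 48% of genes changed by 2 on the log2 scale were called, and 2% of those changed by 1. Changes of that size could thus be missed, and these shares need not hold for the 82 genes.

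The gene nearest to the threshold was RPL13A, a large subunit protein that is also known as part of an inhibitor complex of translation in interferon-treated cells. It had 15.2, 16.6 and 17.9 CPM in IVM MII, 46 and 42.9 CPM in IVO MII, and 13.4 and 13.2 CPM in GV. Both IVO MII libraries lie above all 5 others. The log2 fold change was -1.42 ± 0.33 (SE) in IVM MII over IVO MII, with an edgeR adjusted p of 0.0676. The call was made by DESeq2, by the newer edgeR fit and without the third IVM MII library. RPL37, a zinc-binding large subunit protein, had 40.6, 27.8 and 30 CPM in IVM MII, 12.6 and 3.78 CPM in IVO MII, and 18.2 and 19.4 CPM in GV. The IVM MII values lie above all others, and the log2 fold change over IVO MII was 2.01 ± 0.55 (SE; edgeR adjusted p = 0.0974). It was called by DESeq2, with the replicate block and without the first IVO MII library.

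The other genes at the ends of this comparison turned on the second IVO MII library or on few counts. RPL14 stood at 19.3, 24 and 14.4 CPM in IVM MII, against 10.8 and 0.347 CPM in IVO MII (1.80 ± 1.05 SE on the log2 scale, edgeR adjusted p = 0.354). RPL22, known for a role in lymphocyte development in mice, had 25.2, 27.4 and 20.4 CPM in IVM MII, against 12.6 and 1.5 CPM in IVO MII (1.79 ± 0.76 SE, edgeR adjusted p = 0.224). RPS26, a small subunit protein at the mRNA exit, had 3.11, 2.45 and 1.28 CPM in IVM MII and 11.5 and 1.5 CPM in IVO MII, where a single library was high (-1.51 ± 0.80 SE, edgeR adjusted p = 0.315). RPL12 had a log2 fold change of -0.91 with an SE of 1.08. Both RPL14 and RPL22 were called higher in IVM MII without the first IVO MII library.

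Between mature and immature oocytes, some ribosomal protein genes were higher and others lower, and most did not pass the test. In IVO MII over GV, 10 of the 82 genes rose (12.2%, against 14.6% of all genes tested) and 5 fell (6.10%, against 13.5%), 18.3% in all against 28.1% of all genes. In IVM MII over GV, 12 rose (14.6%, against 18.5% of all genes) and 3 fell (3.66%, against 17.8%), 18.3% in all against 36.3%. These 2 comparisons share the GV libraries, so they are not independent. The median log2 fold change of the 82 genes was -0.03 in IVO MII over GV, against -0.16 over all genes tested, and 0.35 in IVM MII over GV, against -0.10 over all genes. The IVO MII and GV libraries did not overlap for 27 genes higher in IVO MII (32.9%, against 32.0% of all genes) and 22 lower (26.8%, against 40.8%). For IVM MII and GV these were 35 higher (42.7%, against 31.5%) and 20 lower (24.4%, against 37.5%).

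How many genes were called depended on single libraries. In IVO MII over GV, 2 of the 82 rose and 13 fell without the first IVO MII library (2.44% and 15.9%, against 9.13% and 8.12% of all genes), with a median of -0.73. Without the second, 11 rose and 1 fell (13.4% and 1.22%, against 12.9% and 11.3%), with a median of 0.40. Without the first GV library 0 rose and 2 fell, and without the second 2 rose and 2 fell, 2.44% and 4.88% called in all against 8.60% and 9.80% of all genes. In IVM MII over GV the counts of genes that rose and fell were 5 and 1 without the first IVM MII library (7.32% in all, against 26.1% of all genes), 7 and 1 without the second (9.76%, against 28.7%) and 14 and 1 without the third (18.3%, against 39.1%). They were 2 and 1 without the first GV library (3.66%, against 12.2%) and 3 and 1 without the second (4.88%, against 14.7%). The calls over all genes thus also fell in number when a GV library was left out. FAU held its call against GV in both kinds of MII oocyte under all 15 alternatives tried, and RPL10 and RPL26L1 did so in IVM MII. No called gene changed sign under any of these alternatives.

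**Figure D4:**
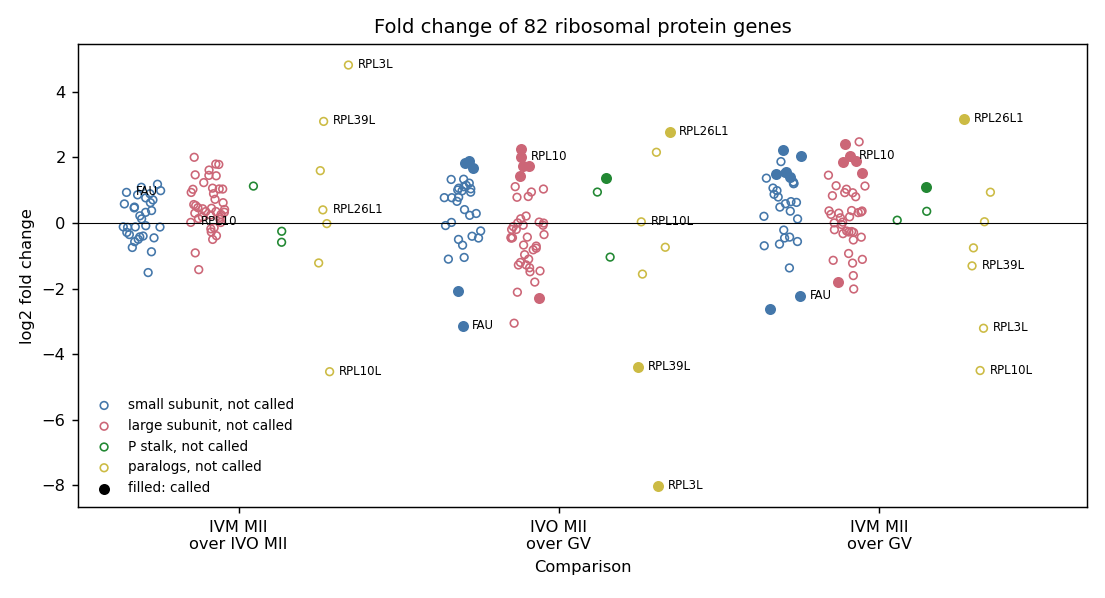
Log2 fold changes of the 82 ribosomal protein genes in the 3 comparisons, with 1 point per gene, grouped by subunit, and filled points for genes with an edgeR adjusted p under 0.05. No point is filled for IVM MII over IVO MII, while 15 are filled in each comparison with GV, FAU below 0 and RPL10 and RPL26L1 above 0 in both. The lowest point, RPL3L in IVO MII over GV, is a fitted value against 0 counts and no measure of size.

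FAU was the gene with the clearest fall. It encodes a ubiquitin-like protein fused to a small subunit protein, from which the ribosomal protein is released by cleavage. FAU (14:9408574-9410188, plus strand, on the unnamed build of the deposited table) had 32.6, 45.2 and 27 CPM in IVM MII, 25.9 and 10.6 CPM in IVO MII, and 152 and 174 CPM in GV. Both GV values lie far above all 5 MII values. The log2 fold change was -2.22 ± 0.43 (SE) in IVM MII over GV (edgeR adjusted p = 0.00516) and -3.16 ± 0.51 in IVO MII over GV (edgeR adjusted p = 0.00378). FAU took 1.12%, 1.72% and 1.33% of all ribosomal protein counts in IVM MII libraries, 1.00% and 0.797% in IVO MII libraries, and 9.15% and 8.65% in GV libraries. RPS27A, in which ubiquitin is fused to a small subunit protein, had 17.1, 18.9 and 8.91 CPM in IVM MII, 17.5 and 3.93 CPM in IVO MII, and 18.9 and 25.4 CPM in GV, and was not called in any comparison. It was chosen after its values were seen, and its row overlaps a gene on the other strand.

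Other small subunit genes moved in both directions. Of the 31, 5 rose and 2 fell in IVM MII over GV, 22.6% called in all against 36.3% of all genes. In IVO MII over GV, 3 rose and 2 fell, 16.1% against 28.1%. The median log2 fold changes were 0.65 and 0.77, against -0.10 and -0.16 over all genes. RPS23 had 175, 140 and 88.5 CPM in IVM MII, 146 and 61 CPM in IVO MII, and 23.6 and 34.1 CPM in GV. All MII values lie above both GV values, with log2 fold changes over GV of 2.22 ± 0.50 (SE; edgeR adjusted p = 0.00972) in IVM MII and 1.84 ± 0.51 (edgeR adjusted p = 0.0292) in IVO MII. RPS29 had 130, 89.2 and 56.6 CPM in IVM MII, 65.2 and 27.5 CPM in IVO MII, and 20.1 and 24.2 CPM in GV. It rose in IVM MII (2.05 ± 0.51 SE, edgeR adjusted p = 0.0155), while its 1.06 ± 0.53 in IVO MII did not pass (edgeR adjusted p = 0.16), and IVM MII over IVO MII was 0.99 ± 0.49 (edgeR adjusted p = 0.283). RPS2, a protein near the mRNA entry, had 13.3, 13.4 and 8.8 CPM in IVM MII, 18.7 and 12.5 CPM in IVO MII, and 3.72 and 4.59 CPM in GV, and passed over GV in both (1.51, edgeR adjusted p = 0.0365, and 1.91, edgeR adjusted p = 0.0245). RPS9, named after its values were seen, had 120, 109 and 101 CPM in IVM MII, 80.3 and 62.4 CPM in IVO MII, and 42.6 and 40.1 CPM in GV, and the 3 groups do not overlap. It rose in IVM MII over GV (1.41 ± 0.31 SE, edgeR adjusted p = 0.00919), and its 0.79 ± 0.33 in IVO MII did not pass (edgeR adjusted p = 0.101). RPS28, also named after its values were seen, rose over GV in IVM MII (1.55) and in IVO MII (1.67), at edgeR adjusted p of 0.0395 and 0.0454. Each of these calls was lost without the first GV library, and all but that of RPS23 in IVM MII also without the second. Those in IVO MII were also lost without the first IVO MII library. The calls of RPS2 in IVM MII and of RPS28 in both were also lost without the first or second IVM MII library and with RLE scaling. Those of RPS2 in IVM MII and RPS28 in IVO MII were also lost with no filter on low counts. RPS28 in IVO MII was lost as well with only the groups compared. Over all alternatives the highest edgeR adjusted p in IVM MII and IVO MII were 0.0938 and 0.191 for RPS23, 0.258 and 0.194 for RPS2 and 0.283 and 0.292 for RPS28, and in IVM MII 0.12 for RPS29 and 0.11 for RPS9.

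RPS7 and RPS26 were, with FAU, the small subunit genes that fell. RPS7, a protein of the small subunit body, had 10.8, 16.3 and 8.57 CPM in IVM MII, 11 and 3.66 CPM in IVO MII, and 29.1 and 32.4 CPM in GV. All 5 MII values lie below both GV values. Its -1.37 in IVM MII over GV did not pass (edgeR adjusted p = 0.0699). DESeq2, the newer edgeR fit and the fit of only the groups compared did call it there. RPS7 fell in IVO MII over GV (-2.08 ± 0.61 SE, edgeR adjusted p = 0.0344). The call was lost without the second IVO MII library or either GV library and with only the groups compared, with a highest edgeR adjusted p of 0.14. RPS26 had 10.8 and 17.1 CPM in GV beside the MII values given above. It fell in IVM MII over GV (-2.61 ± 0.81 SE, edgeR adjusted p = 0.035), a call lost when any IVM MII or GV library was left out and with the replicate block (highest edgeR adjusted p = 0.167). The transcript of TSR2, the chaperone that delivers RPS26 to the ribosome, averaged 3.54 ± 0.424 CPM in IVM MII (SD, n = 3), 6.39 ± 4.71 in IVO MII (SD, n = 2) and 50 ± 1.58 in GV (SD, n = 2). TSR2, named after its values were seen, fell in IVM MII (-3.82, edgeR adjusted p = 0.00176) and in IVO MII (-2.96, edgeR adjusted p = 0.00773) over GV.

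Among the large subunit genes, 5 of 41 rose and 1 fell in each comparison with GV. These calls were 14.6% of the 41, against 36.3% of all genes in IVM MII and 28.1% in IVO MII. The median log2 fold changes were 0.26 in IVM MII and -0.35 in IVO MII, against -0.10 and -0.16 over all genes. RPL10, an X-linked gene (X:151291872-151294888, plus strand) whose protein joins the large subunit last, in the cytoplasm, was the steadiest. It had 112, 109 and 127 CPM in IVM MII, 120 and 109 CPM in IVO MII, and 27.1 and 28.9 CPM in GV. The MII libraries lie close together, and both GV libraries lie far below them. The log2 fold change over GV was 2.05 ± 0.31 (SE) in IVM MII (edgeR adjusted p = 0.00218) and 2.03 ± 0.32 in IVO MII (edgeR adjusted p = 0.0035), and IVM MII over IVO MII was 0.02 ± 0.28 (edgeR adjusted p = 0.985). The call in IVO MII was lost without the first GV library, at an edgeR adjusted p of 0.052.

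RPL30, RPL23A and RPL27 also rose over GV in both kinds of MII oocyte. RPL30 (8:99194638-99198609, minus strand) had 232, 183 and 123 CPM in IVM MII, 242 and 85.3 CPM in IVO MII, and 44.4 and 54.4 CPM in GV. RPL23A, at the exit of the peptide tunnel, had 89.6, 55.6 and 43.1 CPM in IVM MII, 116 and 48 CPM in IVO MII, and 14.9 and 19.1 CPM in GV. RPL27 had 99.2, 77.9 and 49.3 CPM in IVM MII, 87.1 and 52.7 CPM in IVO MII, and 21.2 and 30.6 CPM in GV. For each of the 3 genes all MII libraries exceeded both GV libraries, and the libraries that were low for the whole family, the third IVM MII and the second IVO MII, were the low ones here too. The log2 fold changes over GV in IVM MII and IVO MII were 1.86 ± 0.50 and 1.73 ± 0.53 for RPL30 (SE; edgeR adjusted p = 0.0203 and 0.0394) and 1.88 ± 0.51 and 2.27 ± 0.54 for RPL23A (edgeR adjusted p = 0.0205 and 0.0161). For RPL27 they were 1.54 ± 0.43 and 1.43 ± 0.46 (edgeR adjusted p = 0.0245 and 0.0472). These calls were lost when either GV library or the first library of the MII group was left out. RPL27 in IVM MII was also lost without the second IVM MII library. RPL30 and RPL27 in IVO MII were also lost with RLE scaling and without the first or second IVM MII library, and RPL30 there with only the groups compared. The highest edgeR adjusted p over all alternatives were 0.141 and 0.254 for RPL30, 0.154 and 0.118 for RPL23A and 0.206 and 0.291 for RPL27.

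RPL39, RPL13A, RPL31 and RPL19 passed in a single comparison with GV. RPL39, a small X-linked gene whose protein lines the peptide tunnel, had 22.7, 17.5 and 16.4 CPM in IVM MII, 10.4 and 1.89 CPM in IVO MII, and 2.39 and 4.74 CPM in GV, and rose in IVM MII (2.4 ± 0.75 SE, edgeR adjusted p = 0.0365). RPL13A rose in IVO MII (1.74 ± 0.38 SE, edgeR adjusted p = 0.0109), at the values given above. RPL31 had 2.09, 2.03 and 1.84 CPM in IVM MII, 2.4 and 1.54 CPM in IVO MII, and 6.65 and 7.08 CPM in GV, with no overlap between MII and GV libraries. It fell in IVM MII (-1.79 ± 0.58 SE, edgeR adjusted p = 0.0403), and its -1.80 ± 0.66 in IVO MII did not pass (edgeR adjusted p = 0.0707). RPL19, on the outer face of the large subunit, had 6.44, 14.7 and 7.26 CPM in IVM MII, 7.08 and 2.01 CPM in IVO MII, and 19.3 and 24.9 CPM in GV, and fell in IVO MII (-2.29 ± 0.71 SE, edgeR adjusted p = 0.0428). RPL34, which overlaps another gene on the same strand, had 0.815 and 0.116 CPM in IVO MII and 2.84 and 4.87 CPM in GV, and its -3.06 ± 1.14 (SE) did not pass (edgeR adjusted p = 0.0749). RPL38, known in mice for its part in translating Hox mRNAs, had 3.81, 3.08 and 1.77 CPM in IVM MII and 0.333 and 0.696 CPM in GV, and its 2.48 ± 0.89 (SE) did not pass (edgeR adjusted p = 0.058). RPL12 had -2.01 ± 1.07 (SE) in IVM MII over GV and did not pass either (edgeR adjusted p = 0.17). DESeq2 and the newer edgeR fit did call RPL31 in IVO MII, RPL34 and RPL38. RPL38 was also called with only the groups compared, and RPL12 by the newer edgeR fit. The 4 calls of the main fit in this paragraph were lost when either GV library was left out. That of RPL19 was also lost without the second IVO MII library and with only the groups compared. Those of RPL39 and RPL31 were also lost when any IVM MII library was left out. RPL31 was lost as well with no filter on low counts and with the replicate block. The highest edgeR adjusted p were 0.224 for RPL39, 0.117 for RPL13A, 0.234 for RPL31 and 0.168 for RPL19.

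Of the 3 stalk genes, RPLP1 rose over GV on the TMM scale in both kinds of MII oocyte. It was named after its values were seen, and had 45, 35.3 and 30.9 CPM in IVM MII, 46.6 and 41.6 CPM in IVO MII, and 16.2 and 18.2 CPM in GV. The log2 fold changes were 1.11 ± 0.35 (SE; edgeR adjusted p = 0.0379) in IVM MII and 1.36 ± 0.38 (edgeR adjusted p = 0.0286) in IVO MII, with highest edgeR adjusted p of 0.277 and 0.228 over all alternatives. Both calls were lost when either GV library was left out, that in IVO MII also without the first IVO MII library. The call in IVM MII was also lost without the first or second IVM MII library, with RLE or upper quartile scaling and with no filter on low counts. Its partner RPLP2 was at 5.85, 5.28 and 2.71 CPM in IVM MII, 2.96 and 1.27 CPM in IVO MII, and 3.72 and 4.96 CPM in GV, without a call. RPLP0, on which both sit, was at 23.8, 32.1 and 21.7 CPM, 48.4 and 29.3 CPM, and 21.3 and 19.1 CPM in the same order, also without a call. As a mean share of library counts, the 3 stalk genes together stood at 0.00573% in IVM MII, 0.00764% in IVO MII and 0.00585% in GV. No alternative fit used library totals alone.

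**Figure D5:**
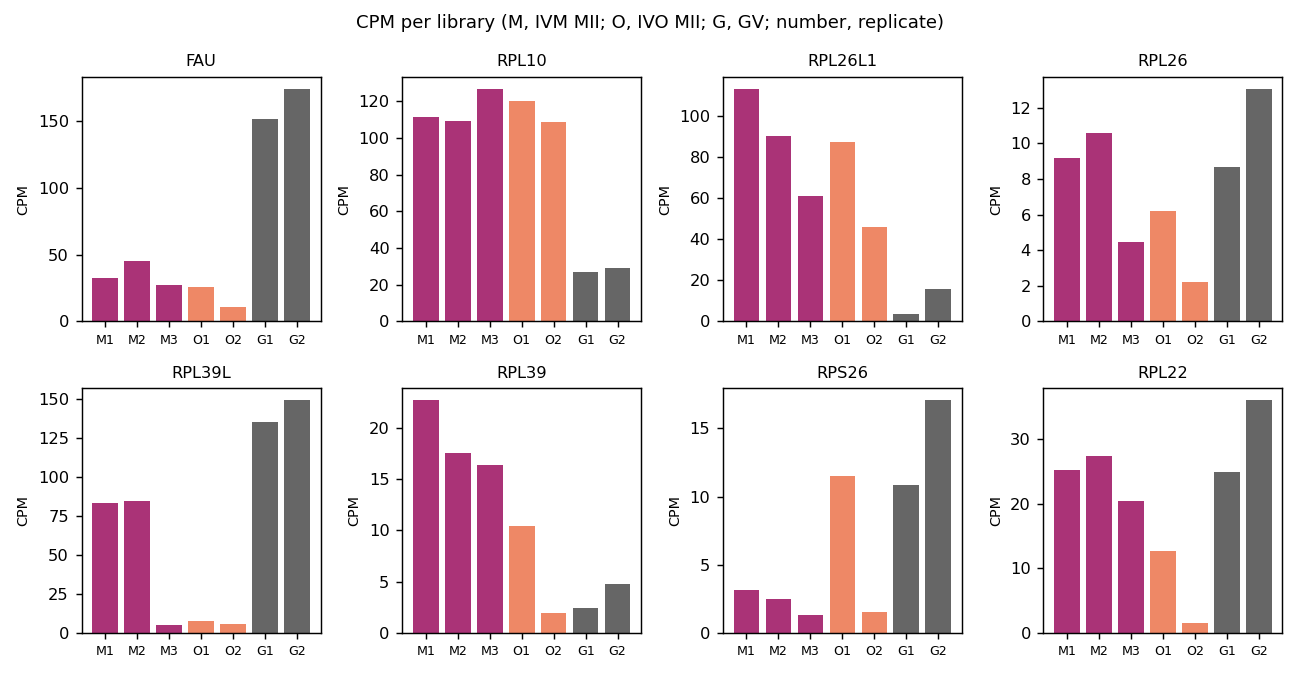
CPM on linear axes, with 1 bar per library, for FAU, RPL10, RPL26L1, RPL26, RPL39L, RPL39, RPS26 and RPL22, with groups ordered IVM MII, IVO MII and GV in each panel. FAU stands at 152 and 174 CPM in GV against 10.6 to 45.2 CPM in MII libraries, RPL10 at 109 to 127 CPM in MII libraries against 27.1 and 28.9 CPM in GV, and the third IVM MII library departs from the other IVM MII libraries for RPL39L.

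The paralogs showed the widest differences, and they are also the genes for which the counting is least certain, since RPL26L1 and RPL39L encode proteins nearly identical to RPL26 and RPL39. RPL26L1 (6:172605014-172613467, plus strand) had 113, 90 and 60.9 CPM in IVM MII, 87.3 and 46 CPM in IVO MII, and 3.72 and 15.6 CPM in GV. All MII libraries were above both GV libraries, with log2 fold changes of 3.19 ± 0.68 (SE; edgeR adjusted p = 0.00772) in IVM MII and 2.79 ± 0.69 (edgeR adjusted p = 0.0184) in IVO MII over GV. The call in IVO MII was lost without the first IVO MII or the first GV library, at an edgeR adjusted p of up to 0.0867. RPL26 itself stayed low, at 9.18, 10.6 and 4.44 CPM in IVM MII, 6.22 and 2.24 CPM in IVO MII, and 8.68 and 13.1 CPM in GV. Per kilobase, the level of RPL26L1 over that of RPL26 was therefore 14.6, 10.1 and 16.3 in IVM MII, 16.7 and 24.4 in IVO MII, and 0.509 and 1.42 in GV.

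RPL39L ran the other way. This autosomal copy of the X-linked RPL39 is best known in mice from male germ cells. RPL39L (2:10328660-10348175, plus strand) had 83.2, 84.9 and 4.81 CPM in IVM MII, 7.69 and 5.75 CPM in IVO MII, and 136 and 150 CPM in GV. GV libraries were the highest, and the third IVM MII library stood with the IVO MII libraries instead of its own group. The log2 fold change in IVO MII over GV was -4.41 ± 1.11 (SE; edgeR adjusted p = 0.0197), a call lost when either IVO MII library was left out (highest edgeR adjusted p = 0.0911). In IVM MII over IVO MII it was 3.10 ± 1.01 (edgeR adjusted p = 0.136). It was called there by DESeq2, with the replicate block and without the third IVM MII library. The share of ribosomal protein counts was 2.86%, 3.23% and 0.237% in IVM MII, 0.298% and 0.430% in IVO MII, and 8.19% and 7.43% in GV. Per kilobase, the level of RPL39L over that of RPL39 was 4.86, 6.42 and 0.390 in IVM MII, 0.976 and 4.03 in IVO MII, and 75.3 and 41.8 in GV.

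The other paralogs were scarce. RPL3L (20:2005249-2014724, minus strand), the copy of RPL3 known from heart and skeletal muscle, had 0.215, 0 and 0.188 CPM in IVM MII, 0 CPM in both IVO MII libraries, and 0.968 and 1.58 CPM in GV. Taking 3 counts in each IVO MII library as the floor, it was at least 9.49-fold lower in IVO MII than in GV (edgeR adjusted p = 0.0428). This call was lost when any IVO MII or GV library was left out and with the replicate block, at an edgeR adjusted p of up to 0.241. RPL10L, an intronless copy of RPL10 known from male meiosis in mice, had 0.0537, 0.0845 and 0.0376 CPM in IVM MII, 2.9 and 0.0386 CPM in IVO MII, and 1.12 and 1.74 CPM in GV. The main edgeR fit did not call it in any comparison (edgeR adjusted p = 0.0516 in IVM MII over GV). DESeq2 called it lower in IVM MII than in IVO MII, where a single library was high. Of the 15 alternatives, 8 called it lower in IVM MII than in GV, among them edgeR with RLE and with upper quartile scaling. RPL22L1 had 1.66, 1.27 and 0.978 CPM in IVM MII, 5.35 and 0.733 CPM in IVO MII, and 0.151 and 1.2 CPM in GV. RPL7L1, which works in ribosome assembly, ranged from 0.815 to 4.67 CPM and RPS27L, known as a p53 target, from 1.5 to 4.96 CPM over the 7 libraries. None of these last 3 was called.

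Genes that make, control or store ribosomes were set beside the family. Of 24 other listed TOP mRNAs, none was called in IVM MII over IVO MII at an adjusted p under 0.05 by edgeR (4, or 16.7%, at an unadjusted p under 0.05, against 21.1% of all genes). Over GV, 7 rose and 4 fell in IVM MII (median log2 fold change 0.52), and 6 rose and 2 fell in IVO MII (median 0.26), 45.8% and 33.3% called in all, against 36.3% and 28.1% of all genes. EIF3E, a subunit of an initiation factor, averaged 183 ± 47.8 CPM in IVM MII (SD, n = 3), 199 ± 124 in IVO MII and 26.4 ± 2.16 in GV (SD, n = 2 each). The poly(A)-binding protein PABPC1 averaged 30.2 ± 0.352, 32.3 ± 0.165 and 6.64 ± 3.14 CPM in the same order. HNRNPA1 and the helicase EIF4A2 rose as well, by 2.43 and 2.23 on the log2 scale in IVM MII and by 2.23 and 2.05 in IVO MII. The genes that fell in IVM MII were the elongation factor subunit EEF1G (-2.23), the nucleotide synthesis enzyme IMPDH2 (-2.00), the prefoldin subunit PFDN5 (-1.59) and EIF3F (-1.13). In IVO MII they were PFDN5 (-1.75) and EEF1A1 (-1.18).

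Of 82 tested ribosome assembly genes, 1 was called in IVM MII over IVO MII (1.22%, against 1.47% of all genes). This was TAF1A, a subunit of the RNA polymerase I initiation factor, with 602 ± 313 CPM in IVM MII (SD, n = 3), 63.1 ± 31.9 in IVO MII and 244 ± 25.7 in GV (SD, n = 2 each). Its log2 fold change was 3.25 (edgeR adjusted p = 0.0435), a call lost without the first or the second IVM MII library, when 0 genes of the whole table were called. Over GV, 14 assembly genes rose and 19 fell in IVM MII (median -0.26), and 14 rose and 17 fell in IVO MII (median -0.45), 40.2% and 37.8% called in all, against 36.3% and 28.1% of all genes. The small subunit kinase RIOK1 averaged 284 ± 43.8 CPM in IVM MII, 436 ± 41.4 in IVO MII and 59 ± 3.85 in GV. The helicase DDX18 averaged 385 ± 93.4, 366 ± 87.9 and 58.5 ± 15.7 CPM in the same groups. RRS1, which brings in the 5S particle, rose by 2.41 in IVM MII and 2.64 in IVO MII on the log2 scale, RRP15 by 2.51 in IVO MII, and TAF1D by 2.27 in IVM MII. Among genes that fell, NHP2, of the snoRNPs that modify ribosomal RNA, averaged 3.44 ± 1.37 CPM in IVM MII, 1.85 ± 0.549 in IVO MII and 84.6 ± 4.94 in GV. ZNF622, NOP2 and RRP9 fell in IVM MII over GV by 4.24, 4.23 and 4.08 on the log2 scale. In IVO MII, GRWD1 had a log2 fold change of -7.07, and RRP1 and PNO1 had no count and were at least 17.4-fold and 8.95-fold lower than in GV, taking 3 counts per library as the floor.

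Among 22 genes of TOP mRNA control and mTOR signalling, none was called in IVM MII over IVO MII by edgeR at an adjusted p under 0.05 (5, or 22.7%, at an unadjusted p under 0.05, against 21.1% of all genes). Over GV, 6 rose and 2 fell in IVM MII (median 0.39), and 6 rose and 1 fell in IVO MII (median 0.12). The shares called, 36.4% and 31.8%, lie near the 36.3% and 28.1% of all genes. The TOP-binding protein TIAL1 rose by 3.42 in IVM MII and 2.61 in IVO MII on the log2 scale, and LARP1B, a relative of LARP1, by 2.37 and 2.14. The mTOR activator RHEB and the cap-binding EIF4E rose by 2.55 and 2.02 in IVM MII, and the mTOR inhibitor DDIT4 and LARP4B by 2.38 and 1.82 in IVO MII. The translation repressor EIF4EBP1, a target of mTOR, averaged 0.221 ± 0.187 CPM in IVM MII (SD, n = 3), 1.26 ± 0.56 in IVO MII and 16.9 ± 2.78 in GV (SD, n = 2 each), and fell in both. The mTOR subunit MLST8 fell in IVM MII (-3.0).

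Of 24 genes for ribosome storage, rescue and quality control, none was called in IVM MII over IVO MII by edgeR at an adjusted p under 0.05 (1, or 4.17%, at an unadjusted p under 0.05, against 21.1% of all genes). Over GV, 7 rose and 3 fell in IVM MII (median 0.75), and 6 rose and 2 fell in IVO MII (median 0.62), 41.7% and 33.3% called in all, against 36.3% and 28.1% of all genes. LTN1 and NEMF, which tag nascent chains on stalled large subunits, rose by 1.99 and 1.82 in IVM MII and by 2.49 and 2.29 in IVO MII on the log2 scale. The collision sensor ZNF598 (2.47) and the ligase RNF10 (1.5) rose in IVO MII, and the recycling factor ABCE1 (2.17) and the disassembly helicase ASCC3 (1.59) in IVM MII. CCDC124, a factor bound to idle ribosomes, averaged 0.224 ± 0.115 CPM in IVM MII (SD, n = 3), 0.364 ± 0.133 in IVO MII and 8.59 ± 0.686 in GV (SD, n = 2 each). HABP4, found on dormant egg ribosomes in frog and fish, averaged 11.4 ± 6.99, 5.9 ± 1.79 and 50.8 ± 8.31 CPM in the same order. CCDC124 and HABP4 fell in both, and EIF5A fell in IVM MII (-2.15).

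The genes whose level over the 7 libraries was most like the mean log2(CPM + 1) of the core ribosomal protein genes were TECTA, OSTC, ETNPPL, DNER and EFCAB7, among 4799 other named genes over 20 CPM on average. Their Pearson correlations were 0.98, 0.97, 0.96, 0.95 and 0.95, over libraries that fall into 3 groups and share depth differences, so they only describe these libraries. The mean log2(CPM + 1) of the core genes was 4.24, 4.18 and 3.83 in IVM MII, 4.2 and 3.15 in IVO MII, and 3.63 and 3.91 in GV, the same low second IVO MII library as above.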

How the data were processed

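Poly(A)-primed, template-switched full-length cDNA was amplified by PCR, tagmented and sequenced with paired ends, per the labels' protocols. The authors deposited raw counts per gene, with exon coordinates on a build not named there. The submitters' processing notes list featureCounts 2.0.1 and Bowtie2 2.4.5, besides SAMtools 1.15.1, Trim Galore 0.6.7 and DESeq2, without their settings. For the build, the strand setting and multiply matching reads, the choice is not given in the sources used here. Reads over introns stay unsplit in Bowtie2, so genes with intronless copies, near-identical paralogs or overlapping neighbours are uncertain. A count reports polyadenylated transcript only.

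Of 28171 lines, 10 broken lines of 3 genes were left out. Counts were tested with edgeR 4.0.16 in R 4.3.3 (TMM, filterByExpr, glmQLFit and glmQLFTest with default settings), with all 7 libraries in 1 fit, two-sided, and Benjamini-Hochberg adjustment over all 16374 genes tested at 0.05. SE is the fold change over the square root of F. Alternatives were RLE, upper quartile and non-member TMM scaling, no filter, DESeq2 1.42.0, the newer edgeR fit, only the groups compared, a replicate block, and leaving out each library. Ratios between libraries used a pseudocount of 1 CPM. A floor of 3 counts is 0.0907 to 0.161 CPM, covers counting error only, and PCR copies are not independent molecules. The fit was tested on simulated data.

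The genes and lists were chosen with earlier results of these data known. Named in the text are called genes (beyond 10 a comparison, the 10 with the largest fold change), the 5 highest and 5 lowest core genes per kilobase, all paralogs, the 3 largest and 3 smallest core fold changes per comparison, up to 4 called genes per supporting list and direction, and the 5 most correlated genes. Exceptions are marked. Names of rows with only a locus identifier came from RefSeq assembly T2T-MFA8v1.1 (5013 of 11294 matched). No sample column was left unmapped.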

Additional observations from a re-analysis of the deposited data

How the results depend on the processing

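Among the ribosomal protein genes named above, no alternative reversed a called fold change. In IVM MII over IVO MII, 241 genes were called. The count was 731 without the filter on low counts, 2010 by DESeq2, 772 by the newer edgeR fit, 54 with only the groups compared, 1238 with the replicate block and 0 to 1277 when leaving out a library (0 without the first or second IVM MII library). Of the 82 ribosomal protein genes 0 were called, against 4 by DESeq2, 1 by the newer edgeR fit, 2 with the replicate block (2.44%, against 7.56% of all genes) and 0 to 5 when leaving out a library. Their median of 0.35 ran from -0.17 to 0.95 when leaving out a library. Higher calls were 146 and lower 95, but 127 and 125 with upper quartile scaling and 27 and 27 with only the groups compared. That scaling moved the median of all genes to -0.11, from which the 82 genes differed by 0.33, against 0.35 with TMM.

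In IVO MII over GV, leaving out a library gave 1484 to 5517 called genes against 4596, 2 to 16 of the 82 against 15, and medians from -0.73 to 0.40. In IVM MII over GV it gave 2110 to 6716 against 5949, and 3 to 21 against 15. RLE moved the medians of all genes to -0.26 and -0.24, against -0.16 and -0.10 with TMM. The medians of the 82 genes minus those of all genes were 0.12 and 0.45 with TMM, 0.15 and 0.45 with RLE. The replicate block called 14 and 13 of the 82. Deviations from the group mean correlated over genes at -0.15 to 0.21 between libraries with the same number in their titles. In a group of 2 libraries such deviations mirror each other, so these values cannot decide on a pairing. The 0.21 is that of the first IVM MII and first IVO MII libraries, which also share a number in the column names. By the numbers in the column names, where the IVO MII libraries are 1 and 3, the correlations with IVM MII were 0.21 and 0.27. These 2 pairs are too few to establish a pairing, and the values of IVO MII mirror each other. A replicate block by these numbers over the MII libraries, chosen after seeing the data, called 772 genes in IVM MII over IVO MII (4.71%) and 1 of the 82, RPL37, with a median of 0.36. With the IVO MII numbers crossed, a choice made after seeing the data, 5548 genes and 17 of the 82 were called over GV, against 4539 and 10 uncrossed. The cause of these shifts was not tested. With a group left at 1 library, its spread was assumed like that of the others. Genes at a few counts, such as RPL12 and RPL3L, are limited by depth.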

Other observations

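Of the core symbols without a row of their own, 3 were found under locus identifiers through the RefSeq names, and none of the 3 was called in any comparison. RPS15, a protein of the small subunit head, had 100.5, 73.1 and 49.9 CPM in IVM MII, 70.7 and 39.8 CPM in IVO MII, and 56.6 and 73.7 CPM in GV. RPL17, at the peptide exit, was scarce, with 1.61, 2.03 and 1.24 CPM in IVM MII, 1.73 and 0.27 CPM in IVO MII, and 1.48 and 1.96 CPM in GV. RPL36A, an X-linked gene, had 4.29, 1.65 and 1.47 CPM in IVM MII, 2.5 and 0.964 CPM in IVO MII, and 0.484 and 0.727 CPM in GV. All 3 had their lowest IVO MII value in the second library.

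The X chromosome carries 3 of the 82 genes, RPL10, RPL39 and RPS4X. RPS4X had 38.1, 30 and 21.1 CPM in IVM MII, 17.6 and 8.56 CPM in IVO MII, and 11.5 and 14.4 CPM in GV, and was not called in any comparison. Chromosome 19 carries 11, the most of any chromosome.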
